A study of Mus musculus with 11 samples.

Results

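Satellite cells are the resident stem cells of skeletal muscle, and 9 genes that mark or drive their progress towards new muscle fibres were followed here: *Pax7*, *Myf5*, *Myod1*, *Myog*, *Myf6*, *Tmem8c*, *Cdh15*, *Ncam1* and *Mef2c*. The members were the probe sets whose deposited symbol is 1 of these names, 9 genes of the 21759 symbols on the array. *Ncam1* had 2 probe sets, and the brighter of these was used. *Tmem8c* carries the current name *Mymk*, and its protein is known as Myomaker. The probe sets of all 9 members are annotated as matching a single gene, and none shared all its values with another probe set.

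RNA came from frozen mid-belly sections of the tibialis anterior (TA), a fast muscle of the lower leg, of 11 male mice of 14 weeks of age, and each mouse had its own array. The control group was 3 C57 mice, and the dystrophic group was 4 untreated *mdx* mice, which carry a nonsense mutation in exon 23 of the dystrophin gene on the same C57/B10 strain background. The treated group was 4 *mdx* mice given 1 tail vein injection of Pip6e-PMO at 12.5 mg/kg when 12 weeks old. Pip6e-PMO is a peptide joined to a morpholino oligonucleotide that makes the splicing machinery skip the mutated exon, so that a shortened dystrophin can be made. The mutation is present in every tissue from birth, so the treated muscle had been dystrophic until the injection, and a single time after it was sampled.

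Quiescent satellite cells express Pax7 and Myf5 and lie against the fibre, held in part by the adhesion protein M-cadherin, the product of *Cdh15*. After injury they divide and express MyoD, then leave the cell cycle and switch on myogenin, which together with MEF2 proteins drives the genes of the contractile apparatus. The resulting myocytes fuse through Myomaker, and the young fibres carry embryonic myosins and NCAM until they mature. In *mdx* muscle, fibres break down and are replaced in repeated rounds.

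*Tmem8c*, *Myog*, *Ncam1* and *Mef2c* were called higher in *mdx* than in C57 muscle, by 9.70-fold, 3.28-fold, 2.5-fold and 1.70-fold. *Pax7*, *Myod1*, *Myf6* and *Cdh15* were not called, and *Myf5*, higher in every *mdx* mouse than in every C57 mouse, was too dim to enter the test. Between treated and *mdx* mice no member was called in the main fit, which weighted all 11 mice equally. Averaging the probe sets of each gene gave 1 call, *Ncam1* (-0.435, adjusted p = 0.0487 by limma). That average takes in its second probe set, which is too dim to be tested alone and is annotated to the opposite strand. With treated mouse 2 left out, *Myog*, *Tmem8c* and *Ncam1* were called lower in the treated group. With all 11 mice but array weights, by which limma gives less weight to the more variable arrays, these 3 and *Cdh15* were. Treated mouse 2 was the highest treated mouse for *Pax7*, *Myod1*, *Myog*, *Tmem8c* and *Cdh15*, and its array deviated most from its group mean. Both fits thus reduce the part of that mouse and are not separate lines of support. Fewer cells of a type and less RNA per cell cannot be told apart in whole-muscle RNA.

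Differences are of mean log2 signal with the standard error (SE), and a gene is called when its Benjamini-Hochberg adjusted p from limma is under 0.05 across the 14494 probe sets whose group mean reached 30 in any of the 3 groups. In that fit, 7.06% of all probe sets were called higher and 4.96% lower in *mdx* than in C57 mice. Of the 8 members tested, 4 were called higher and 0 lower.

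The arrays had median intensities of 27.5 to 28.6. Treated mouse 2 stood apart from the other 10 arrays, with a root mean square deviation from its group mean of 0.295 on the log2 scale against 0.131 to 0.226. The *Dmd* probe set, which averages 80 probes over the dystrophin transcript and does not test exon 23, read 54.6 to 58.5 in C57 mice, 24.3 to 56.5 in the *mdx* group and 45.6 to 81.0 after treatment, treated mouse 2 being the lowest treated mouse. Neither its difference between *mdx* and C57 mice (-0.55, adjusted p = 0.198) nor that between treated and *mdx* mice (0.53, adjusted p = 0.142) was called. The 8 muscle fibre markers were bright in every mouse, with a summed intensity of 49270 to 51180 in C57 mice, 49990 to 50850 in the *mdx* group and 48910 to 52610 after treatment.

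The promoters of 3 members are shown because they belong to a gene that was higher in *mdx* muscle (*Myog*) and to 2 that were not called (*Pax7* and *Cdh15*). Each is the RefSeq sequence from 250 bases before to 50 bases after the start of the gene in GRCm38.p6, written 5′ to 3′ along the gene. Capitals mark every E-box, the letters CANNTG that MyoD family proteins can bind, which read the same on both strands.
Myog, chr1:134289754-134290053, plus strand: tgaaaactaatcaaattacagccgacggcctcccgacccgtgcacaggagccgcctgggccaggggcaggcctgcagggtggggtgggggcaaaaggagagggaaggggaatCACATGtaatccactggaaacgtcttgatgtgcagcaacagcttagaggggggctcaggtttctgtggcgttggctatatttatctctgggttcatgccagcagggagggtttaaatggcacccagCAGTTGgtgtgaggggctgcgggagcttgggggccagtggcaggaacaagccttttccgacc
Pax7, chr4:139832919-139833218, minus strand: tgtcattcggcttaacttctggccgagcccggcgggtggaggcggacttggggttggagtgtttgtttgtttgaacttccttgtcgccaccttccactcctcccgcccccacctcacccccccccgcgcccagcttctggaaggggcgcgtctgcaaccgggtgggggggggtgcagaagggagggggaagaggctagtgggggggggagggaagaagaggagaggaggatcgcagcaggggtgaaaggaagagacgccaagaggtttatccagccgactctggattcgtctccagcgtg
Cdh15, chr8:122848124-122848423, plus strand: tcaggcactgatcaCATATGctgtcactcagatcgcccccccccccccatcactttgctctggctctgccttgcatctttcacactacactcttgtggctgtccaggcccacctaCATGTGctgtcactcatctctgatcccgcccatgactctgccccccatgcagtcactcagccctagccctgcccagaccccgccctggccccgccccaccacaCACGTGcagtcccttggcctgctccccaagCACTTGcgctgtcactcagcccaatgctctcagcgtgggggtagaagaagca
The *Myog* window held 2 E-boxes, beginning 138 and 12 bases before the start. That of *Cdh15* held 4, beginning 236, 135, 32 and 2 bases before it, and the *Pax7* window held 0. Promoters of 5 of the 9 members were in the table, and the other two of these were *Myf5*, with 0 E-boxes, and *Mef2c*, whose 3 alternative starts had 2, 0 and 1. *Myod1*, *Myf6*, *Tmem8c* and *Ncam1* had no entry. At least 1 E-box lay in 72.3% of the 32851 mouse promoters of this length, and at least 2 in 39.6%.

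*Pax7*, the transcription factor that defines the satellite cell, read 59.3, 71.5 and 76.6 in the C57 mice, 74.0, 79.3, 88.0 and 88.0 in the *mdx* mice and 76.1, 81.0, 77.7 and 68.1 in the treated mice. The lowest *mdx* value lay below the highest C57 value, so the groups overlapped. The *mdx* mean was 0.26 above that of C57 mice (SE 0.11, 95% interval 0.01 to 0.50, adjusted p = 0.181 by limma). Treated mice differed from *mdx* mice by -0.12 (interval -0.35 to 0.11, adjusted p = 0.459) and from C57 mice by 0.14 (interval -0.11 to 0.38, adjusted p = 0.388). A rise of *Pax7* signal in *mdx* muscle beyond 0.50 on the log2 scale was thus outside the interval, and its lower end lay just above 0.

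*Myf5*, the myogenic factor already present in most quiescent satellite cells, was the dimmest member and did not reach a mean signal of 30 in any group. It read 16.7, 20.5 and 15.6 in C57 mice, 31.1, 30.1, 23.9 and 23.9 in *mdx* mice and 23.9, 23.9, 35.5 and 30.5 in treated mice. Every *mdx* mouse and every treated mouse was above every C57 mouse, and the *mdx* and treated values overlapped. The differences were 0.63 for *mdx* against C57, 0.68 for treated against C57 and 0.05 for treated against *mdx* mice. For each of the first pair the exact permutation test, two-sided, gave p = 0.0286, the smallest that 3 against 4 mice allow. When probe sets of every signal were fitted, *Myf5* was called in both (adjusted p = 0.0406 and 0.0189 by limma), so its standing depends on the minimum signal.

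*Cdh15*, which encodes M-cadherin of the satellite cell and myoblast surface, read 208, 231 and 220 in C57, 191, 182, 215 and 204 in *mdx* and 162, 211, 170 and 168 in treated mice. Its mean was lower by 0.15 in *mdx* than in C57 mice, which did not pass the test (SE 0.11, adjusted p = 0.452 by limma). The treated mean was below that of C57 mice, by -0.31 (SE 0.11, adjusted p = 0.0552), and 3 of the 4 treated mice read lower than every *mdx* mouse. Without treated mouse 2, the exception, *Cdh15* was called lower in treated than in C57 mice, at -0.40 (adjusted p = 0.00858), and missed the threshold against *mdx* mice (-0.25, adjusted p = 0.0508). In that fit *Cdh15* was the only member called lower than in C57 mice. With all 11 mice the same call was made with array weights (-0.40, adjusted p = 0.00164), median-centred arrays (-0.36, adjusted p = 0.0321), repeated quantile normalization (-0.37, adjusted p = 0.0353) and 16 added to each intensity (-0.29, adjusted p = 0.0492).

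*Myod1*, the master factor of activated myoblasts, varied widely within each group: 367, 534 and 449 in C57 mice, 526, 461, 639 and 815 in *mdx* mice and 372, 622, 335 and 556 in treated mice. All 3 groups overlapped. The difference was 0.42 between *mdx* and C57 mice (SE 0.24, interval -0.10 to 0.95, adjusted p = 0.313 by limma) and -0.39 between treated and *mdx* mice (SE 0.22, adjusted p = 0.257). The second was -0.54 without treated mouse 2 (adjusted p = 0.0852).

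*Myog*, encoding myogenin, the factor of terminal differentiation, read 24.4, 31.8 and 47.2 in C57 mice against 108, 81.0, 149 and 107 in *mdx* mice. The *mdx* group lay wholly above the C57 group, and the difference of 1.71 (SE 0.42, adjusted p = 0.0206 by limma) was a 3.28-fold higher signal. It ranked 88 from the highest of the 14494 probe sets. The C57 spread was large (SD 0.48, n = 3), and the call was lost, with the difference still 1.49 to 1.68, when C57 mouse 1 (adjusted p = 0.0799), C57 mouse 2 (0.0756) or *mdx* mouse 3 (0.0572) was left out. The E-boxes of its promoter are in the sequence above.

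In the treated mice *Myog* read 33.8, 128, 37.3 and 31.3. Treated mice 1, 3 and 4 lay inside the C57 range and treated mouse 2 inside the *mdx* range. With all 4, the treated mean differed from that of *mdx* mice by -1.20 (SE 0.39, adjusted p = 0.0664) and from that of C57 mice by 0.51 (SE 0.42, adjusted p = 0.385). Without treated mouse 2, *Myog* was 3.19-fold lower than in *mdx* mice (-1.68 on the log2 scale, SE 0.22, adjusted p = 0.00199), and the difference from C57 mice was 0.04 with an interval of -0.49 to 0.56.

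*Myf6*, which encodes MRF4, the myogenic factor of mature fibres, read 1428, 1418 and 1458 in C57, 1418, 1531, 1552 and 1663 in *mdx* and 1235, 1160, 1618 and 1618 in treated mice. The C57 mice were nearly equal, and the treated mice fell into a lower pair, mice 1 and 2, and a higher pair. No difference was called: 0.10 for *mdx* against C57 (interval -0.18 to 0.38), -0.15 for treated against *mdx* and -0.04 for treated against C57 mice (adjusted p = 0.697, 0.424 and 0.821 by limma). The order of treated and C57 mice turned when treated mouse 1 or 2 was left out (0.013 and 0.043).

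**Figure D1:**
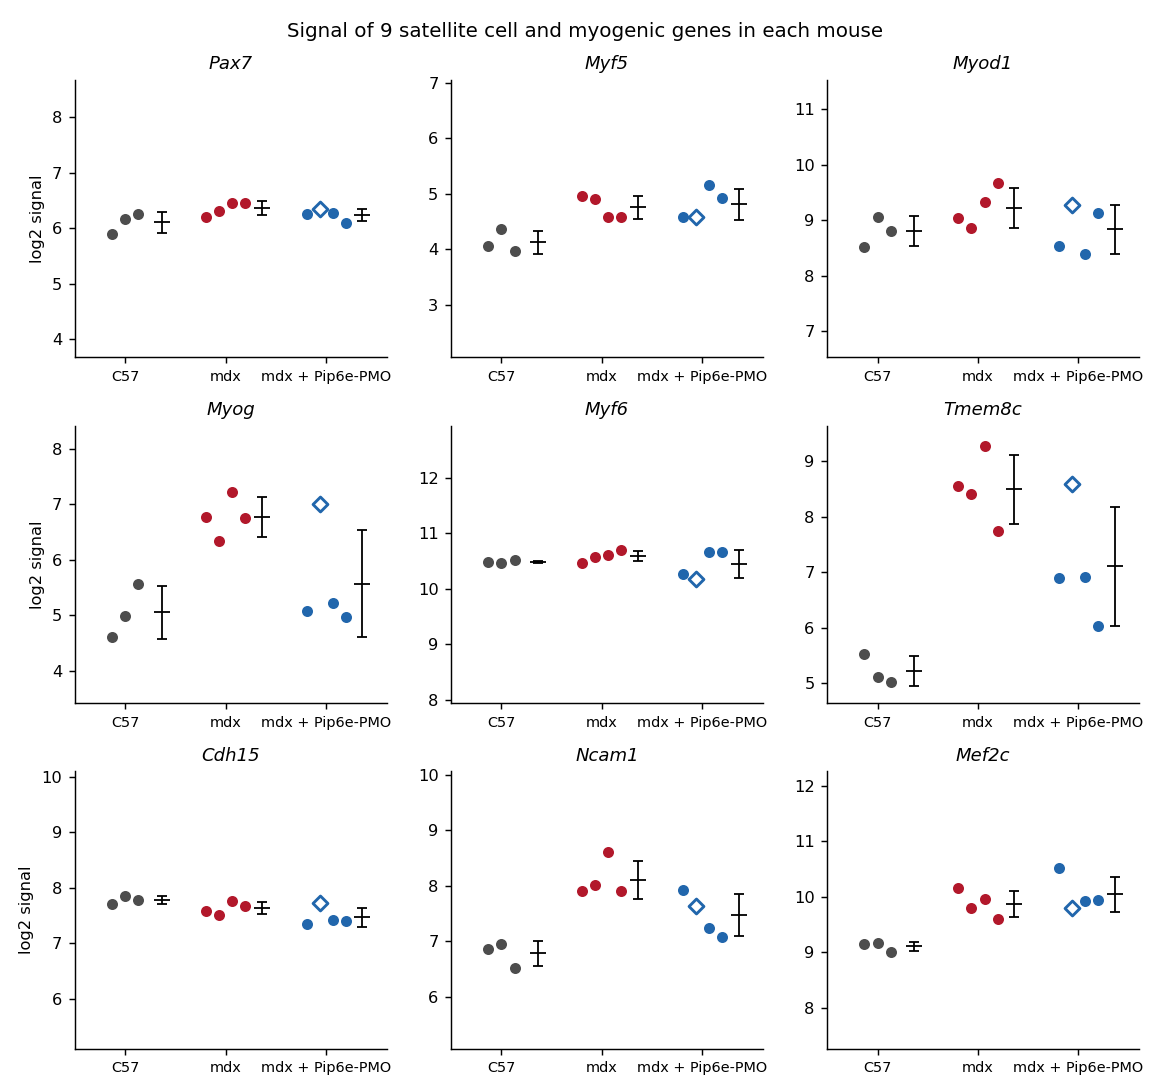
Log2 signal of each of the 9 genes in each mouse; each point is a mouse, the open diamond is treated mouse 2, the bar beside each group is the mean with the SD, and every panel spans 5 log2 units. *Tmem8c* and *Myog* show the largest mean differences between C57 and *mdx* mice, with treated mouse 2 among the *mdx* values (8.59 and 7). *Pax7*, *Myf6* and *Cdh15* stay within a narrow band.

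*Tmem8c*, whose protein Myomaker sits in the myoblast membrane and is needed for fusion, had the largest difference of the members. C57 mice read 46.2, 34.5 and 32.4 and *mdx* mice 377, 340, 617 and 215, a gap without overlap. The difference was 3.28 (SE 0.48, interval 2.22 to 4.33, adjusted p = 0.00116 by limma), or 9.70-fold, and ranked 33 of 14494. Its call held in each of the 11 fits that left out 1 mouse.

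Treated mice read 119, 385, 120 and 65.8 for *Tmem8c*, so that mice 1, 3 and 4 lay between the 2 other groups and mouse 2 lay among the *mdx* mice. The treated mean was 3.70-fold that of C57 mice (1.89, SE 0.48, adjusted p = 0.0164 by limma). That call was lost without C57 mouse 2 (adjusted p = 0.0562) or C57 mouse 3 (0.0636). The difference from *mdx* mice was -1.39 (SE 0.45, adjusted p = 0.0633). Without treated mouse 2 the treated group was 3.69-fold below *mdx* mice (-1.88, SE 0.31, adjusted p = 0.00352) and still 2.63-fold above C57 mice (1.39, SE 0.34, adjusted p = 0.0102). *Tmem8c* therefore differed from *Myog* in that the 3 treated mice did not reach the C57 range. The C57 signals of both genes were near the minimum, and the difference between the 2 genes was not itself tested.

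*Ncam1*, the neural cell adhesion molecule that appears on activated myoblasts and on young or denervated fibres, read 117, 124 and 91.8 in C57 mice and 239, 258, 391 and 241 in *mdx* mice. Again no *mdx* mouse reached down to the C57 range. The *mdx* mean was 2.5-fold higher (1.32, SE 0.22, adjusted p = 0.00235 by limma). The second, dimmer *Ncam1* probe set read 9.51 to 16 over the 11 mice and was not used.

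In treated mice *Ncam1* read 242, 198, 152 and 135. Here treated mouse 1, not mouse 2, was the highest, and it lay inside the *mdx* range. The treated mean was above that of C57 mice by 0.69 (SE 0.22, adjusted p = 0.0396) and below that of *mdx* mice by -0.64 (SE 0.20, adjusted p = 0.0612). The first call was not held when any C57 mouse was left out (adjusted p up to 0.157) and was also lost without treated mouse 1 or 2 or *mdx* mouse 2. The drop from *mdx* mice was called without treated mouse 2 (-0.69, SE 0.22, adjusted p = 0.0375), a 1.61-fold lower signal, while the groups still overlapped.

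*Mef2c*, a partner of the myogenic factors that is also expressed in endothelial and immune cells, read 564, 576 and 516 in C57 mice, 1136, 885, 996 and 776 in *mdx* mice and 1458, 885, 969 and 989 in treated mice. Both groups of *mdx* animals lay above every C57 mouse. The difference from C57 was 0.77 in *mdx* mice (SE 0.17, adjusted p = 0.0115 by limma) and 0.94 in treated mice (SE 0.17, adjusted p = 0.00303). The first was lost without C57 mouse 3 (adjusted p = 0.0516). Treated and *mdx* mice differed by 0.17 (interval -0.18 to 0.51, adjusted p = 0.494), and without treated mouse 2 by 0.25 (adjusted p = 0.252). *Mef2c* was thus the member called in *mdx* muscle whose treated mean lay above, not below, the *mdx* mean.

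Across the comparisons, every *mdx* mouse read above every C57 mouse for *Tmem8c*, *Myog*, *Ncam1* and *Mef2c* among the 8 members tested, as for 13.1% of all probe sets tested. The comparisons of treated mice with *mdx* and with C57 mice share the treated animals, and both share animals with the comparison of *mdx* and C57 mice. Against *mdx* mice, 0 of 8 members were called in treated mice by limma, where 7.26% of all probe sets were called higher and 3.88% lower. At an unadjusted p under 0.05 the count was 3, all lower (*Myog*, *Tmem8c* and *Ncam1*), where 13% of all probe sets were lower at that threshold. With array weights 4 were lower at the adjusted threshold (*Myog* -1.59, *Tmem8c* -1.88, *Ncam1* -0.89 and *Cdh15* -0.23), beside 12.9% of all probe sets. Without treated mouse 2 it was 3 lower and 0 higher at the adjusted threshold, beside 16.4% higher and 12% lower of all probe sets.

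Against C57 mice, treated mice had 3 members called higher (*Tmem8c*, *Ncam1* and *Mef2c*) and 0 lower, where 15.6% of all probe sets were higher and 8.96% lower. Leaving out treated mouse 2 gave 2 higher (*Tmem8c* and *Mef2c*) and 1 lower (*Cdh15*), with a background of 20.3% and 13.8%. With array weights and all mice 19% of probe sets were lower, *Cdh15* among them. At an unadjusted p under 0.01 with at least a 1.5-fold difference, 4 members passed in *mdx* against C57 (background 7.55%), 2 in treated against *mdx* (*Tmem8c* and *Ncam1*, background 5%) and 3 in treated against C57 mice (background 11.2%).

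**Figure D2:**
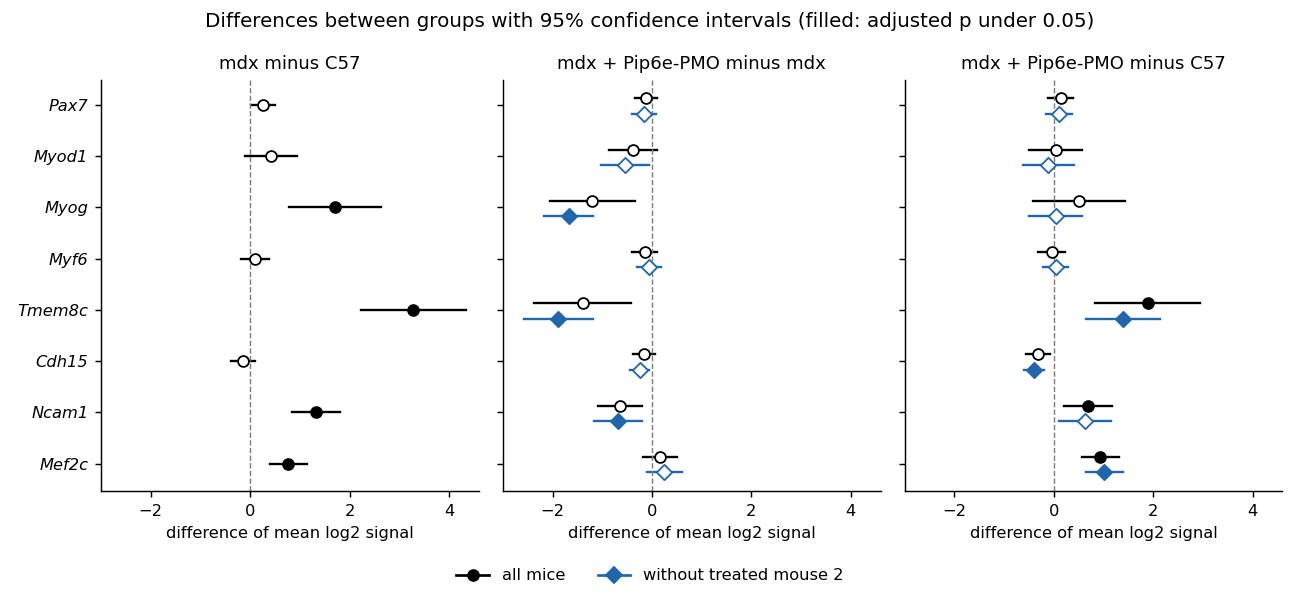
Difference of mean log2 signal with its 95% interval for the 8 members tested, in the 3 comparisons; circles use all mice, diamonds leave out treated mouse 2, and filled symbols have an adjusted p under 0.05. *Myog*, *Tmem8c* and *Ncam1* lie below 0 in treated minus *mdx* mice and are filled only without treated mouse 2 (-1.68, -1.88 and -0.69).

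The members varied together to different degrees, described by Pearson's r of the log2 signals over the 11 mice, which share 3 group means. *Tmem8c* and *Ncam1* had r = 0.91 and *Tmem8c* and *Myog* r = 0.87. After the group means were removed these were 0.58 and 0.75. *Myf6* had r between -0.16 and 0.16 with each of the other 7 tested members, but within groups it ran opposite to *Tmem8c* (r = -0.70), *Ncam1* (-0.57) and *Myog* (-0.53). *Cdh15* ran opposite to *Mef2c* (r = -0.74, within groups -0.44), and within groups its closest member was *Myog* (r = 0.90, where treated mouse 2 was the highest treated mouse for both). Over all mice that pair had r = 0.27.

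**Figure D3:**
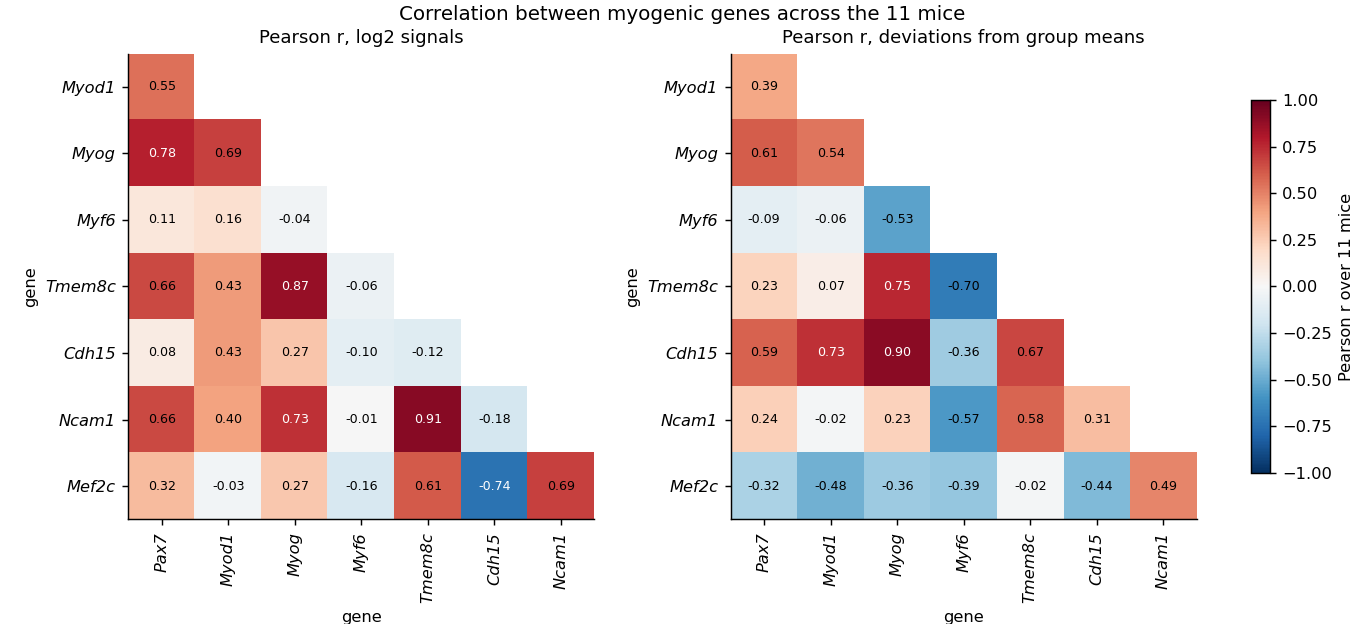
Pearson's r between the 8 members tested over 11 mice, of the log2 signals on the left and of deviations from the group means on the right, from -1 (blue) to 1 (red). *Tmem8c*, *Myog* and *Ncam1* correlate at 0.73 to 0.91 on the left, and *Cdh15* with *Myog* reaches 0.90 on the right.

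Among all probe sets tested, the 3 genes most like *Tmem8c* over the 11 mice were *Chrng*, the fetal subunit of the acetylcholine receptor (r = 0.98), *Myl4*, an embryonic myosin light chain (r = 0.98), and *Myh3*, embryonic myosin heavy chain (r = 0.98). Within groups these were 0.98, 0.92 and 0.96. For *Myog* they were *Nab2*, *R3hdml* and *2310022B05Rik* (r = 0.95 to 0.96), and for *Ncam1* they were *Chrna1*, *Baiap2l1* and *Arid5b* (r = 0.92 to 0.94). *Mef2c* was most like *Nipbl*, *Cast* and *Atad2b* (r = 0.95 to 0.97). These are the highest of 14494 candidates over 11 mice in 3 groups and are given as a description.

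*Chrng* showed the course of *Tmem8c* mouse by mouse. Its log2 signal was 4.12 to 4.25 in C57 mice, 6.5, 6.23, 7.15 and 5.80 in *mdx* mice and 5.03, 6.59, 5.08 and 4.21 in treated mice. *Mdx* mouse 3 was the highest and *mdx* mouse 4 the lowest of the *mdx* mice for *Tmem8c*, *Chrng*, *Myh3* and *Myl4* alike, and treated mouse 2 was the highest and treated mouse 4 the lowest of the treated mice for these 4 genes. For *Myog*, *mdx* mouse 3 and treated mouse 2 were again the highest and treated mouse 4 the lowest, but *mdx* mouse 2 was the lowest *mdx* mouse.

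**Figure D4:**
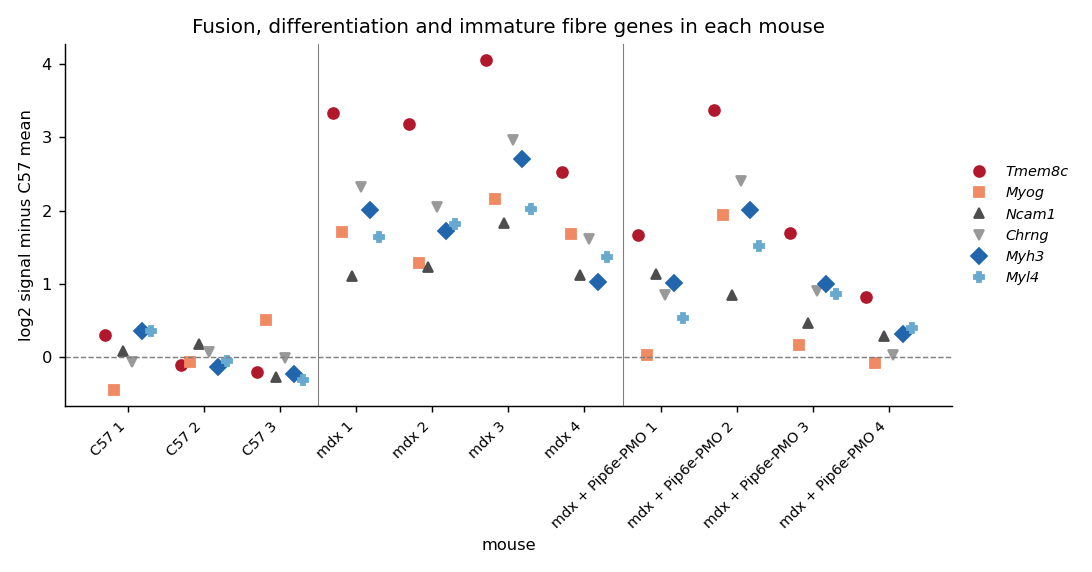
Log2 signal minus the C57 mean in each of the 11 mice for *Tmem8c*, *Myog*, *Ncam1* and the 3 genes most like *Tmem8c*; each symbol is a gene, offset sideways for legibility. The *mdx* mice and treated mouse 2 stand 1.03 or more above the C57 mean for *Tmem8c*, *Myog*, *Chrng*, *Myh3* and *Myl4*, and treated mouse 4 stands 0.82 or less above it for all 6 genes.

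The list of immature fibre genes holds *Chrng*, *Myh3* and *Myl4*, the 3 genes most like *Tmem8c*, and *Chrna1*, the gene most like *Ncam1*. Its counts are thus in part the same observation. Of its 10 genes, 8 were called higher in *mdx* than in C57 mice and 0 lower, in every fit that left out 1 mouse, with a median difference of 1.27 beside -0.01 over all probe sets tested. They were *Chrng* (2.24), *Myh3* (1.87), *Runx1*, a transcription factor of denervated and damaged fibres (1.72), *Myl4* (1.71), *Actc1*, cardiac actin (1.40), *Chrna1* (1.15), *Tnnt2*, cardiac troponin T (1.12), and *Myh8*, perinatal myosin (0.87). *Chrnd* and *Gadd45a* were not called (-0.17 and 0.12). In treated against *mdx* mice 3 were lower (*Tnnt2* -0.93, *Myl4* -0.88 and *Chrna1* -0.62). That count ran from 0 to 5 over the fits leaving out 1 mouse and was 5 without treated mouse 2, where 12% of all probe sets were lower. In treated against C57 mice 4 were higher and 0 lower (*Runx1* 1.53, *Actc1* 1.105, *Myl4* 0.83 and *Myh8* 0.77), where 15.6% of all probe sets were higher.

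Among other satellite cell genes, the counts were less stable. Of the 14 tested genes of a list of 17 that holds *Pax7*, *Myf5* and *Cdh15*, 6 were higher and 1 lower in *mdx* mice, and the count of 7 ranged from 2, without C57 mouse 2, to 9 when single mice were left out. *Cd82*, a tetraspanin found on satellite cells (1.03), and *Cxcr4*, a chemokine receptor (0.64), were called in each of those 11 fits. *Vcam1* (0.60), *Itga7* (0.57), *Cd34* (0.44), *Megf10* (0.42) and *Chrdl2* (-0.51) were each lost in 1 or more of them. *Vcam1*, *Cxcr4* and *Cd34* are also made by vessel and immune cells. In treated against *mdx* mice *Met*, the receptor of hepatocyte growth factor, was the only one called (0.61, adjusted p = 0.0209 by limma, lost in 5 of 11 fits).

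Of the myogenic factors and their partners, 17 were tested, and *Id2*, an inhibitor of E-proteins (1.15, adjusted p = 0.00399), was the only one called higher in *mdx* mice beside *Myog* and *Mef2c*, with none lower. Leaving out single mice gave 2 to 5 calls. In treated mice *Tcf4* (0.61, adjusted p = 0.00930), *Tcf12* (0.52, adjusted p = 0.0287), both E-proteins that pair with MyoD and myogenin, and *Mef2a* (0.50, adjusted p = 0.0356) were higher than in *mdx* mice. *Tcf4* held in all 11 fits, *Tcf12* in 5 and *Mef2a* in 4, and the count ranged from 1 to 8, the highest without treated mouse 2. In that fit *Id1* (-1.08) and *Id3* (-0.79), inhibitors of the same kind as *Id2*, were called lower (adjusted p = 0.00206 and 0.00177 by limma).

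Of 15 tested fusion and adhesion genes, 4 were higher in *mdx* mice and none lower: *Tmem8c*, *Ncam1*, the integrin *Itgb1* (0.63) and *Myof*, a membrane repair and fusion protein (0.55). The count ranged from 2 to 6 over the fits leaving out 1 mouse, and *Myof* was held in 2 of them. Between treated and *mdx* mice, with all 11 mice, *Itgb1* was the only list gene called. It was higher (0.58, adjusted p = 0.0284 by limma, held in 6 of 11 fits). Against C57 mice 7 of the 15 were higher in treated mice and 0 lower, where 15.6% of all probe sets were higher. *Gm7325*, now named *Mymx*, encodes Myomixer, which acts with Myomaker in fusion. Its log2 signal averaged 4.59 in C57, 5.17 in *mdx* and 4.68 in treated mice, and its difference of 0.58 between *mdx* and C57 mice was not called (adjusted p = 0.0905), nor was that between treated and *mdx* mice (-0.49). Without treated mouse 2, which read 5.34 against 4.27 to 4.59 in the others, it was called lower in treated than in *mdx* mice (-0.71, adjusted p = 0.00352). In that fit 5 of the 15 list genes were lower, *Tmem8c* and *Ncam1* among them, and 2 higher. Of all probe sets 12% were lower and 16.4% higher there.

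Of 12 Notch pathway genes, which hold satellite cells in quiescence, none was higher and *Dll4* was lower in *mdx* mice (-0.48), and that call was lost in 4 of 11 fits. *Jag1* (0.30) and *Hes1* (0.45) were called higher in treated than in *mdx* mice, held in 2 and 1 of the 11 fits. Of the growth factors that act on satellite cells 8 were tested. *Igf2* (2.08), *Tgfb1* (0.88), *Igf1* (0.85) and *Fst*, the myostatin inhibitor follistatin (0.83), were higher in *mdx* mice in all 11 fits, and *Fgf2* was lower (-0.48, held in 9). *Igf1* was higher again in treated than in *mdx* mice (0.44, adjusted p = 0.0252, held in 6).

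Cell division was poorly measured. Of 12 genes of the cell cycle, 8 did not reach the minimum signal in any group, among them *Mki67* and *Top2a*. Of the other 4, *Rrm2*, a subunit of ribonucleotide reductase, was higher in *mdx* than in C57 mice (1.11, adjusted p = 0.000369 by limma), and none was called between treated and *mdx* mice. The 8 dim genes were not tested, and nothing is said here of their direction.

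Markers of other cells moved in the same comparisons. Of 8 tested macrophage markers, 7 were higher in *mdx* mice (*Cd68* 2.12, *Tyrobp* 1.86, *Lyz2* 1.70), and the summed intensity of the 9 listed was 1079 to 1517 in C57 mice, 2844 to 4529 in the *mdx* group and 2229 to 3015 after treatment. Treated mouse 2 was the highest treated mouse, at 3015 against 2229 to 2478. Between treated and *mdx* mice *Cd68* (-1.035) and *Tyrobp* (-1.12) were called lower and *Mrc1* higher (0.49). These calls held in 6, 7 and 4 of the 11 fits leaving out 1 mouse. The part of the macrophage markers in the signals of the members, *Mef2c* above all, was not tested. None of these markers read near 0, and *Cd163* did not reach the minimum signal.

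The endothelial markers, which bear on *Mef2c*, had 1 of 6 genes higher in *mdx* mice (*Cldn5* 1.20) and 4 of 6 higher in treated than in C57 mice, or 2 without C57 mouse 3. Their sum was 1487 to 2038 in C57 mice, 2065 to 2605 in the *mdx* group and 2173 to 3242 after treatment. Treated mouse 2 was the lowest of the treated, as for *Mef2c*. Between treated and *mdx* mice 2 of 6 were higher (*Pecam1* 0.78 and *Tek* 0.97, adjusted p = 0.0277 and 0.0332 by limma), where *Mef2c* was not called. Between *mdx* and C57 mice, where *Mef2c* was higher, *Pecam1* and *Tek* differed by 0.06 and -0.08. *Emcn* (0.485), *Kdr* (0.39) and *Cdh5* (0.27) had higher means in *mdx* mice without being called. The part of endothelial cells in the *Mef2c* signal was not tested. Of 6 fibroblast markers 2 were higher in *mdx* mice (*Lum* 1.56 and *Col3a1* 1.38), with sums of 6171 to 7476, 8177 to 9256 and 6918 to 10480. Of the lymphocyte markers only *Nkg7* of 8 was bright enough to test, and it was higher in *mdx* mice (2.00). Their part in these results was not tested.

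Peripheral nerve markers ran the other way, with 4 of 6 lower in *mdx* than in C57 mice and the same number lower in treated than in C57 mice. The summed signal of the list was 1730 to 2680 in C57 mice, 1312 to 1661 in the *mdx* group and 1241 to 1484 after treatment. *Ncam1* is also made by Schwann cells and nerve, and it was higher where these markers were lower. Of the 8 muscle fibre markers none was called between *mdx* and C57 mice, and *Myh2*, fast oxidative myosin, was higher in treated than in *mdx* mice (1.45, adjusted p = 0.0158 by limma), a call just lost without *mdx* mouse 4.

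**Figure D5:**
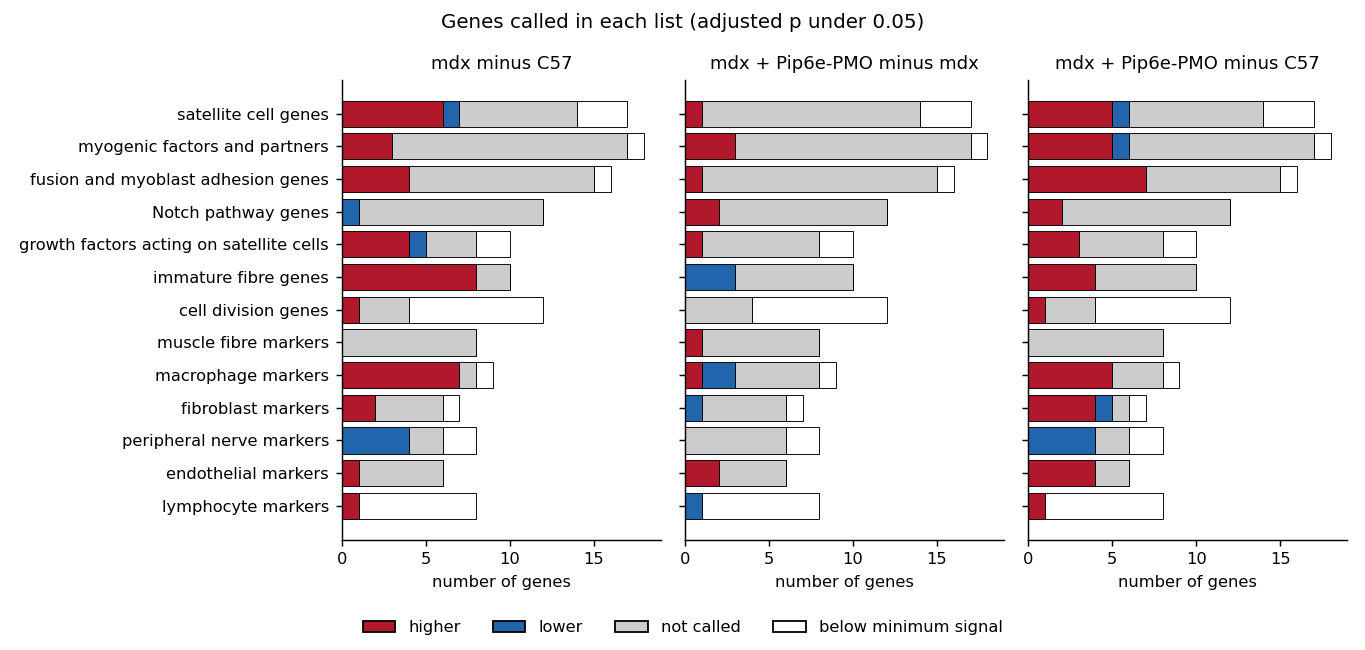
Number of genes in each of 13 lists that were called higher (red), lower (blue), not called (grey) or below the minimum signal (white) in the 3 comparisons, with all 11 mice. In *mdx* minus C57 mice the immature fibre list (8 of 10) and the macrophage list (7 of 9) hold the largest shares of higher genes, and the peripheral nerve list holds 4 lower genes.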

How the data were processed

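RNA of each mouse was hybridized to its own Affymetrix Mouse Gene ST 1.1 array. Per the paper's supplementary methods and the submitters' processing notes, the authors ran RMA in Affymetrix Expression Console, which subtracts background, quantile-normalizes from a sketch of the data and summarizes probes by median polish. The deposited values are linear intensities of 28350 probe sets. They still hold the dim probe sets (under 30 in every group) that the methods state were removed, and the genome build is not given in the sources used here. Quantile normalization sets the arrays to 1 distribution, so values are relative within an array.

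Log2 intensities of probe sets with a group mean of at least 30 were fitted with limma 3.58.1 in R 4.3.3 (3 group means, eBayes, two-sided moderated tests, Benjamini-Hochberg adjustment over 14494 probe sets). Tests were checked on simulated data. The 9 members and 13 gene lists were chosen with earlier results of these data known. Genes named are the members, list genes that were called or define their list, and the 3 symbols with the highest Pearson r to a member. The 14 alternatives covered other tests, weights, filters, scalings, a replicate block and leaving out each mouse. Promoters came from RefSeq (GRCm38.p6). Plots used Python 3.11.15 and matplotlib 3.10.9.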

Additional observations from a re-analysis of the deposited data

Results flagged for a closer look

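In 18 groups of 4 mice (9 genes in *mdx* and in treated mice), the mouse farthest from the rest was tested by the ratio of its gap to the range against Dixon's critical value for 4 values. Chance passes this in about 1 of 20 groups, and 2 of the 18 passed. *Myog* in treated mouse 2 had a log2 signal of 7, against 4.97 to 5.22 in the other treated mice (ratio 0.877). *Ncam1* in *mdx* mouse 3 had a log2 signal of 8.61, against 7.90 to 8.01 in the other *mdx* mice (ratio 0.845). The call of *Ncam1* between *mdx* and C57 mice held when that mouse was left out.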

How the results depend on the processing

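Between *mdx* and C57 mice 4 members were called, 3 to 4 when single mice were left out, 2 by the methods' t-test on log2 signals (*Tmem8c* and *Ncam1*) and 1 by the Welch form (*Tmem8c*), each after Benjamini-Hochberg adjustment. Between treated and *mdx* mice 0 were called, with 0 to 3 when single mice were left out. Array weights gave 4, averaging probe sets per gene 1 (*Ncam1*), and an unadjusted p under 0.01 with 1.5-fold 2. Between treated and C57 mice 3 were called, 1 to 3 when single mice were left out, and 0 by both the methods' t-test and the Welch form. Of 552 single-gene values under an alternative, 500 were counted as unchanged. They kept direction and side of the threshold, except *Myf5*, untested in the main fit, which was counted by its unchanged difference. Of the others, 28 lost a call, 13 gained one and 11, none called, changed sign. These were *Myf6* in treated against *mdx* mice with array weights (0.011), *Myod1* in treated against C57 mice with array weights (-0.27), median-centred arrays (-0.011), the replicate block (-0.087) and 3 of the 11 fits leaving out a mouse (range of the 11, -0.11 to 0.18), and *Myf6* in treated against C57 mice with array weights (0.12), repeated quantile normalization (0.045) and 2 of those fits (range of the 11, -0.12 to 0.043). The causes were not tested. With mouse number as a replicate block the counts of members called stayed at 4, 0 and 3. Of 10 same-numbered pairs 1 had a correlation of deviations over 0.1 (range -0.30 to 0.15), so the numbers were not taken as pairs. Having 3 or 4 arrays a group, *Myf5* near background, and the C57 signals of *Myog* and *Tmem8c* near the minimum signal, limits the precision.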
